A study of Mus musculus with 12 samples.

Results

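The integrin chains examined here are 10 genes, 6 α chains (Itga4, Itga5, Itga6, Itgae, Itgal and Itgav) and 4 β chains (Itgb1, Itgb2, Itgb3 and Itgb7), each represented by every probe set whose platform annotation names it alone. That gave 30 of the 45099 probe sets on the array, and 10 of the 18194 genes with a symbol. RNA came from sorted mouse thymocytes and was hybridised to Affymetrix arrays, with 2 arrays in each of 6 groups: IkL/L DN3, WT DN3, IkL/L DN4, WT DN4, IkL/L DP and WT DP. The IkL/L genotype, called Ikaros-deficient by the submitters, is known as a hypomorphic allele of Ikzf1, the gene of the zinc-finger transcription factor Ikaros, in which a lacZ reporter is inserted. The allele is carried by all cells of the mouse and not by thymocytes alone. DN3 and DN4 are successive stages of precursors without CD4 or CD8, and DP cells carry both. Cells of 3 mice were pooled for sorting, age and sex are not given, and no label says that the arrays of a group came from separate pools, so p-values measure the spread between these arrays, which may be partly technical.

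Integrins are αβ heterodimers that hold a cell to matrix proteins or to counter-receptors on other cells, and a chain reaches the surface only with a partner. The α4 chain (Itga4) pairs with β1 or β7 and binds VCAM-1, fibronectin and, as α4β7, MAdCAM-1. The α6 chain (Itga6) pairs with β1 or β4 and binds laminins, the αE chain (Itgae) pairs with β7 and binds E-cadherin, and αL (Itgal) with β2 (Itgb2) forms LFA-1, which binds ICAMs. Fibronectin is also the ligand of α5β1, and αv integrins, including αvβ3, bind vitronectin and other proteins. In the thymus, precursors move through the cortex while they differentiate, and adhesion to VCAM-1 and to matrix is known to take part in that movement.

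Promoter windows of 250 bases before the start of transcription were available from RefSeq (GRCm38.p6) for 5 of the 10 genes (Itga4, Itga5, Itgav, Itgb1 and Itgb7). Those of Itga4 and Itgb1 are shown because their signals differed between the genotypes in opposite directions and their chains form α4β1 together. Capitals mark matches, on either strand, of GGGAA, the core that Ikaros proteins bind, and of TGTGGT, the core that Runx proteins bind. These motifs do not overlap there.
Itga4, chr2:79255176-79255425, plus strand: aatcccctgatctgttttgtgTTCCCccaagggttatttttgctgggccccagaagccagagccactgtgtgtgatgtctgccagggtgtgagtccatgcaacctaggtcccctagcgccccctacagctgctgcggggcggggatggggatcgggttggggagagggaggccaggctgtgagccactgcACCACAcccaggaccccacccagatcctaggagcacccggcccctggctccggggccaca
Itgb1, chr8:128685404-128685653, plus strand: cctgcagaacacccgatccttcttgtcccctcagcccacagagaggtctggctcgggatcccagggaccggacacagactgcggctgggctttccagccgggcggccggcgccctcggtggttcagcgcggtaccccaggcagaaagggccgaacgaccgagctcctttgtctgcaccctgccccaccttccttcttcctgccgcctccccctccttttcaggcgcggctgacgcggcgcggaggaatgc
The Itga4 window held 1 match of GGGAA, on the minus strand with its first base at -229 from the start, and 1 of TGTGGT, on the minus strand at -60, while the Itgb1 window held 0 of each. Of the other 3 windows, those of Itga5 and Itgav held 1 match of GGGAA each and that of Itgb7 held 0. GGGAA occurs in 56.2% and TGTGGT in 14.0% of all 32851 promoter windows of this length, and a match of letters is neither a binding site nor a cause.

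Signals are the deposited log2 values, on which a difference of 1 is a doubling, and all members' levels below are on that scale. The array medians lay between 5.14 and 5.22, and precision is set by how few arrays a group has. Ikzf1 itself was lower in IkL/L cells on its brighter probe set, with differences of -0.65 in DN3, -0.63 in DN4 and -0.70 in DP cells (limma, adjusted p = 0.0262, 0.0263 and 0.0134), although where that set lies relative to the insertion is not given in the sources used here. Its other tested set differed by -0.29 in DN3, -1.03 in DN4 and -0.23 in DP cells (0.507, 0.00889 and 0.589), called in DN4 cells alone. The sorted stages carried their defining markers on average: the mean over 10 DN3 genes (Il2ra, Ptcra, Hes1 and others) was 9.65 to 9.76 on IkL/L and 10.07 to 10.12 on WT DN3 arrays, and 8.16 to 8.99 on the rest, and that over 9 DP genes (Cd4, Cd8a, Cd8b1 and others) was 12.44 to 12.66 on DP arrays and 9.57 to 10.12 on the rest. Rag1 is in both lists. From DN4 to DP, 3 of the 10 DN3 genes were called higher and 1 lower in IkL/L cells, against 16.8% and 21.6% of all sets. In WT cells 2 were called higher and 7 lower, against 27.5% and 27.6%. The IkL/L DN3 arrays agreed less well with each other (r = 0.964 across probe sets, which are not independent) than the arrays of the other groups (0.983 to 0.992), and the myeloid gene S100a8 was at 8.96 on replicate 1 and at 5.33 on replicate 2. The 3 IkL/L arrays numbered 2 showed Y-linked genes at 2.82 to 3.80, against 5.13 to 9.58 on the other 9 arrays, so counts are also given without these 3. The X-linked gene Xist was at 10.33 to 12.70 on all 12 arrays.

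A probe set was tested where at least 2 of the 12 arrays lay at or above their own array's median, which 18 of the 30 integrin probe sets did. The other 12, with signals between 2.86 and 5.24, were not tested, and each of the 10 genes kept at least its brightest probe set. Differences were tested with limma over all 24976 tested probe sets, with Benjamini-Hochberg adjustment, and called at an adjusted p under 0.05. A difference is IkL/L minus WT unless a step between stages is named, and ± beside it is its standard error (SE). Beside a group mean, ± is the SD (n = 2).

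On average over the stages, IkL/L thymocytes had lower signals of the α4 and αE chains and higher signals of the α6 and β1 chains than WT thymocytes. Itgb1 was called at no single stage, and in DP cells only 1 set, of Itga4, was called. Averaged over the 3 stages, the signal of Itga4 fell to 64.3% of WT, while Itga6 rose to 165% and Itgb1 to 146%. Itgae was below the array median on every IkL/L array, so that its difference in DN3 and DN4 cells is a lower limit. In that averaged comparison 9 of the 18 integrin probe sets were called, 4 higher and 5 lower in IkL/L, where 8.7% of all tested probe sets were called. The calls belonged to 4 genes: 3 of 3 tested Itga4 sets, 2 of 2 Itgae sets, 2 of 2 Itga6 sets and 2 of 3 Itgb1 sets. Both Itgae sets and 1 uncalled Itgb1 set reached the array median in 1 genotype only, so the filter itself asked for a difference. Without such sets, 7 of 15 integrin sets were called (4 higher, 3 lower), against 8.19% of 24312 sets. The number called of the 18 stayed between 8 and 12 when each array was left out in turn, and was 8 without the 3 IkL/L replicate 2 arrays. In bulk RNA, fewer cells that express a gene and less of its RNA per cell cannot be told apart.

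By stage, 5 of 18 sets were called in DN3 cells (1 higher, 4 lower, against 1.83% of all sets), 5 in DN4 cells (2 higher, 3 lower, against 3.17%) and 1 in DP cells (lower, against 2.8%). Without the sets that reached the median in 1 genotype only, 3, 4 and 1 of 15 were called, against 1.55%, 2.95% and 2.54%. The median difference over the 18 sets was -0.40 in DN3, -0.23 in DN4 and 0.01 in DP cells, where over all tested sets it was -0.01, 0.04 and 0.00. Without the 3 IkL/L replicate 2 arrays the counts were 2 in DN3, 3 in DN4 and 1 in DP cells. The counts within a stage moved by more than 1.5 times with several single arrays: they ran from 1 to 6 in DN3, from 1 to 9 in DN4 and from 1 to 4 in DP cells. With only the 4 arrays of the stage in the fit, 0 sets were called in DN3, 7 in DN4 and 0 in DP cells, and with a filter at the 75th percentile of the array, 2, 4 and 0. The share of all sets called in each such fit is not given here. A change in these counts therefore cannot be told from a change over the whole array.

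**Figure D1:**
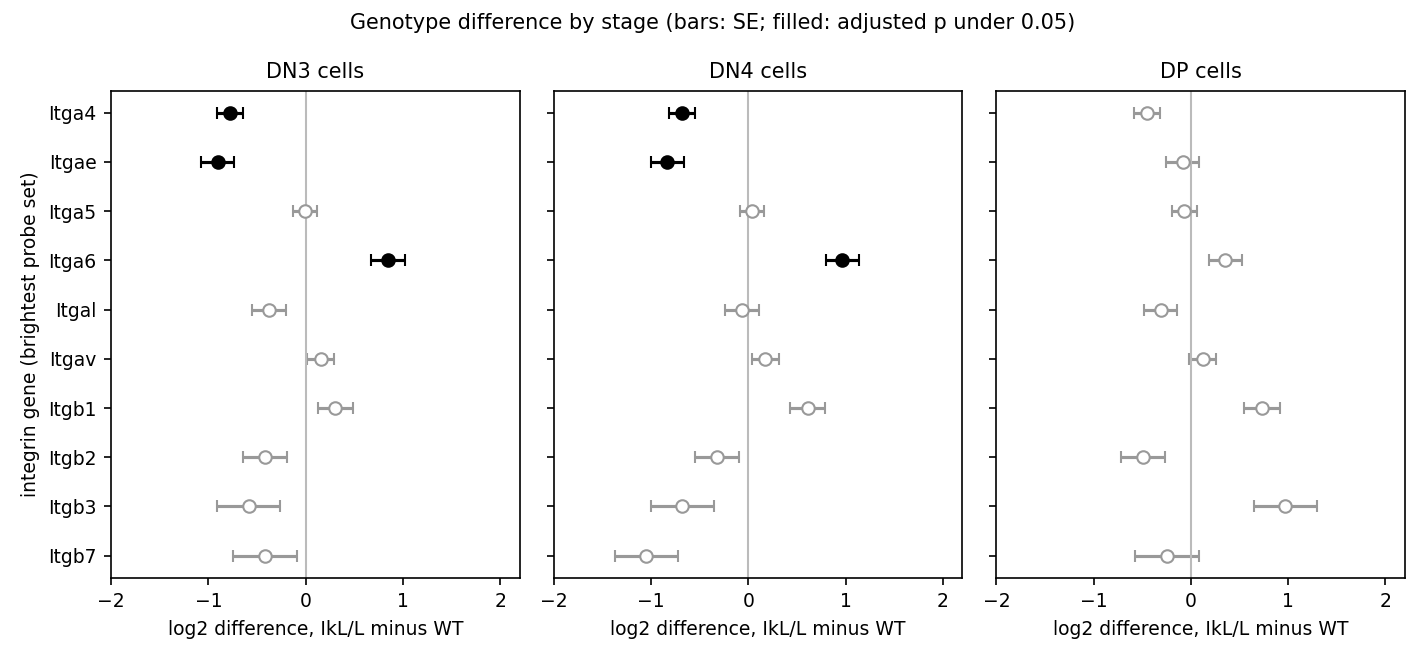
Log2 difference of signal, IkL/L minus WT, of the brightest probe set of each of the 10 integrin genes (rows) in DN3, DN4 and DP cells (panels). Points are limma estimates, bars their standard errors, and filled points have an adjusted p under 0.05. Itga4 and Itgae lie to the left and Itga6 to the right of 0 in DN3 and DN4 cells, and no filled point is present in DP cells.

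Itga4, the α chain of VLA-4 (α4β1), was lower in IkL/L DN3 and DN4 cells and on average over the stages. On its brightest probe set (1436037_at), in DN3 cells, its signals were 10.04 and 9.71 on the IkL/L arrays, against 10.62 and 10.68 on the WT arrays. In DN4 cells they were 9.15 and 9.03 on the IkL/L arrays, against 9.75 and 9.79 on the WT arrays, and in DP cells 9.26 and 9.24 on the IkL/L arrays, against 9.65 and 9.75 on the WT arrays. Both IkL/L arrays were thus below both WT arrays at each stage. The differences were -0.78 ± 0.13 in DN3 cells (adjusted p = 0.019), -0.68 ± 0.13 in DN4 cells (0.0293) and -0.45 ± 0.13 in DP cells (0.13, not called), and -0.64 ± 0.08 averaged over stages (0.000998). The averaged call was kept without any 1 array. Without the 3 IkL/L replicate 2 arrays the DN3 and DN4 calls were both lost, at differences of -0.61 and -0.62. The call in DN3 cells was lost without IkL/L DN3 replicate 2 or either WT DN3 array (adjusted p 0.103 to 0.156), and that in DN4 cells without any 1 of the WT DN3, WT DN4, IkL/L DN4 or IkL/L DP arrays (0.0513 to 0.212).

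Another Itga4 probe set, 1421194_at, showed larger differences at all 3 stages. It read 6.25 and 6.19 on the IkL/L arrays, against 7.47 and 7.32 on the WT arrays, in DN3 cells. In DN4 cells it read 5.68 and 5.48 on the IkL/L arrays, against 6.77 and 6.72 on the WT arrays, and in DP cells 5.53 and 5.70 on the IkL/L arrays, against 6.40 and 6.49 on the WT arrays, with no overlap of the genotypes at any stage. It fell to 44.3% of WT in DN3 cells (difference -1.17 ± 0.13, adjusted p = 0.00173), to 44.6% in DN4 cells (-1.17 ± 0.13, 0.00196) and to 56.5% in DP cells (-0.82 ± 0.13, 0.00837). Itga4 was highest in WT DN3 cells. The mean over 10 DN3 stage genes was 9.65 to 9.76 on IkL/L and 10.07 to 10.12 on WT DN3 arrays, with 0 of the 10 called, against 1.83% of all sets. It was 8.45 to 8.66 on IkL/L and 8.35 to 8.59 on WT DN4 arrays (1 called higher, 1 lower, against 3.17%), and 8.81 to 8.99 on IkL/L and 8.16 to 8.22 on WT DP arrays (4 called higher, against 2.8%). The part of this in the Itga4 difference was not tested. The DP difference of 1421194_at was the only integrin call in DP cells, and it was lost without IkL/L DP replicate 1 (adjusted p = 0.0818). The third tested set, 1456498_at, differed by -0.78, -0.90 and -0.60 at the successive stages, none of them called, and by -0.76 ± 0.12 averaged (adjusted p = 0.00486). Of the untested Itga4 sets, 1450155_at, below the array median throughout, also read lower on both IkL/L arrays at each stage (4.26 to 4.46 on IkL/L and 4.64 to 5.07 on WT arrays), and 1427615_at lay between 3.72 and 4.21 on all arrays.

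Itga6, the α chain of laminin receptors, was higher in IkL/L DN3 and DN4 cells. Its brightest set (1422445_at) read 9.58 and 9.32 on the IkL/L arrays, against 8.52 and 8.70 on the WT arrays, in DN3 cells. In DN4 cells it read 9.30 and 9.20 on the IkL/L arrays, against 8.18 and 8.38 on the WT arrays. In DP cells it read 9.99 and 9.82 on the IkL/L arrays, against 9.33 and 9.77 on the WT arrays. The genotypes were well apart in DN3 and DN4 cells and nearly met in DP cells. The signal rose to 180% of WT in DN3 cells (difference 0.84 ± 0.17, adjusted p = 0.0456) and to 196% in DN4 cells (0.97 ± 0.17, 0.0223), and differed by 0.36 ± 0.17 in DP cells (0.407, not called). The averaged difference was 0.72 ± 0.10 (0.00227) and kept its call without any 1 array. The DN3 and DN4 calls of this set were both lost without the 3 IkL/L replicate 2 arrays, at differences of 0.97 and 1.02.

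The Itga6 call in DN3 cells was close to the threshold: it was lost without any 1 of the WT DN3, WT DN4, IkL/L DN3, IkL/L DN4 or IkL/L DP arrays (adjusted p 0.0683 to 0.386), and with array weights, arrays centred on their median or 1 replicate block for both genotypes (0.0781 to 0.0905), and that in DN4 cells without any 1 array of the DN4 groups (0.0987 to 0.135). The other Itga6 set, 1422444_at, differed by 0.80 ± 0.17 in DN3 (0.0529, not called), 1.30 ± 0.17 in DN4 (0.00534) and 0.63 ± 0.17 in DP cells (0.099, not called). Its DN4 call was lost without replicate 1 of either DN4 group (0.0514 to 0.0543). Its averaged difference was 0.91 ± 0.10 (0.000522), so both Itga6 sets were called in the averaged comparison. Of 7 tested dendritic cell genes, 1 was called higher in DN3 cells (H2-Ab1) and 2 in DN4 and in DP cells (H2-Ab1 and Tcf4), with 0 lower, against 1.83%, 3.17% and 2.8% of all sets called in these comparisons. Their median differences were 0.60 in DN3, -0.19 in DN4 and -0.01 in DP cells, where all tested sets had -0.01, 0.04 and 0.00. The mean over 8 such genes was 6.92 to 6.94 on IkL/L and 6.31 to 6.40 on WT DN3 arrays, 6.65 to 6.75 on IkL/L and 6.6 to 6.76 on WT DN4 arrays, and 6.16 to 6.44 on IkL/L and 6.01 to 6.25 on WT DP arrays, so that the genotypes were apart in DN3 cells and overlapped in DN4 and DP cells, while Xcr1 was below the array median on all 12. Their part in the Itga6 and Itgb1 differences was not tested.

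Itgb1, the β1 chain shared by α4, α5, α6 and αv, was higher in the averaged comparison and in no single stage. Its brightest set (1426918_at) read 8.57 and 8.03 on the IkL/L arrays, against 7.98 and 8.01 on the WT arrays, in DN3 cells. In DN4 cells it read 8.76 and 8.44 on the IkL/L arrays, against 8.04 and 7.94 on the WT arrays, and in DP cells 8.51 and 8.58 on the IkL/L arrays, against 7.74 and 7.88 on the WT arrays. On this set the IkL/L arrays were above the WT arrays at each stage, IkL/L DN3 replicate 2 only just. The differences were 0.30 ± 0.18, 0.61 ± 0.18 and 0.73 ± 0.18 (adjusted p = 0.563, 0.0983 and 0.0767), and 0.55 ± 0.10 averaged (0.0125). Without either IkL/L DN3 array the DN4 and DP differences passed the threshold (0.0288 and 0.0205). A second set, 1452545_a_at, differed by 0.65 ± 0.14 averaged (0.0209), a call lost without WT DN3 replicate 1, WT DN4 replicate 2, IkL/L DN4 replicate 1 or IkL/L DP replicate 2 (0.0557 to 0.0693). On 1452545_a_at IkL/L DN3 replicate 2 read 7.82, below WT DN3 replicate 2 at 7.84, while the genotypes did not overlap in DN4 or DP cells. Averaged over all Itgb1 sets, dim ones included, the difference was 0.29 (0.0234). The third tested set, 1427771_x_at, stood near the array median and differed by 0.32 ± 0.11 (0.115, not called). The remaining 3 Itgb1 sets lay between 2.86 and 3.59.

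**Figure D2:**
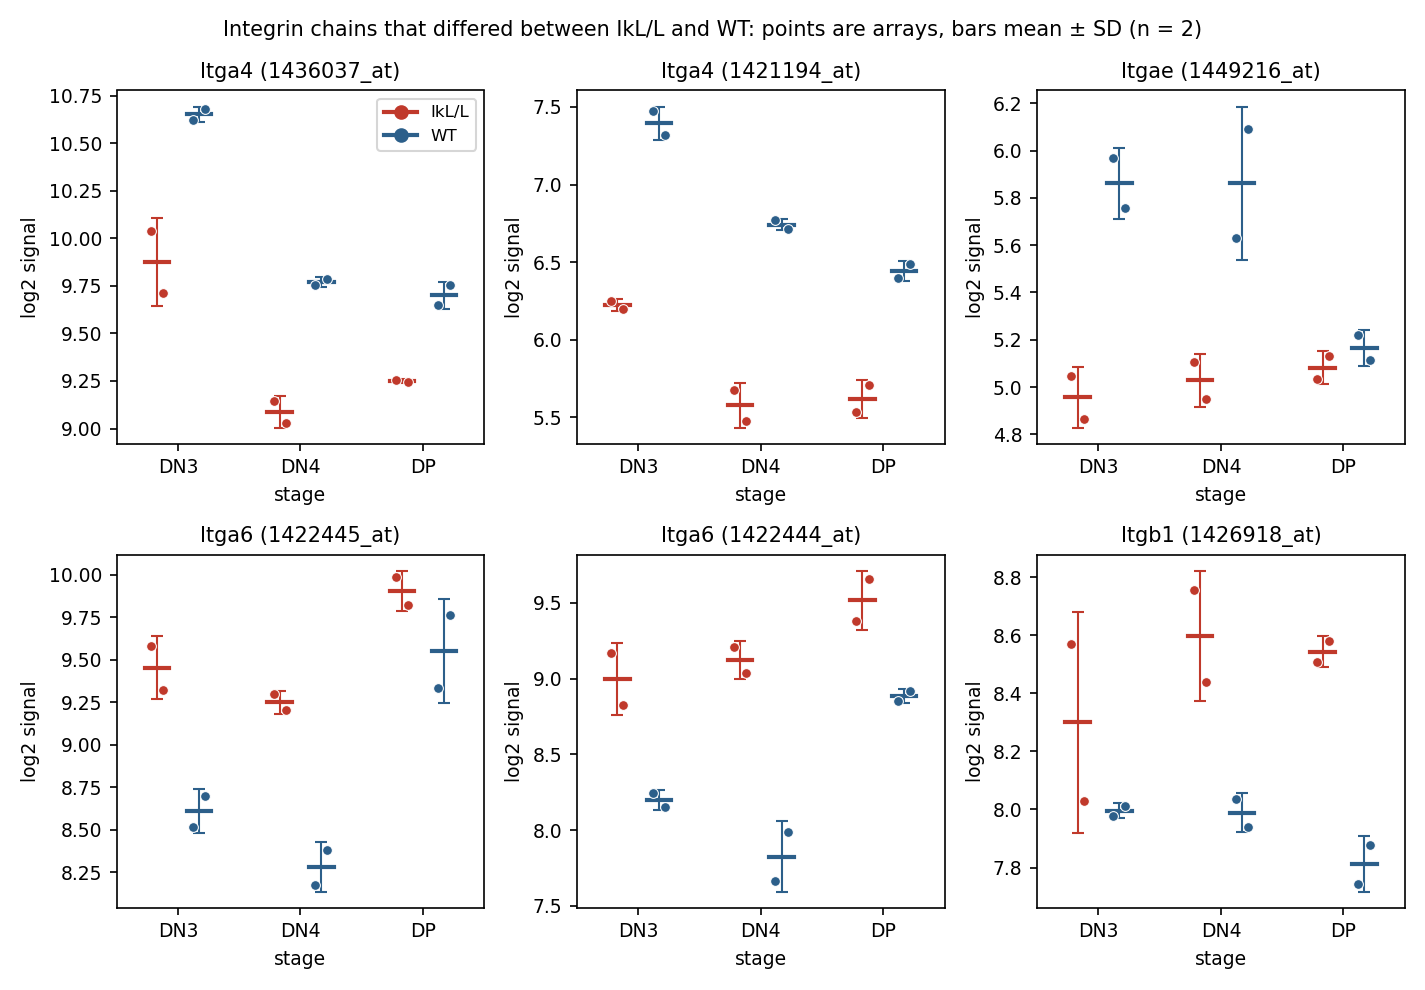
Log2 signal of 2 Itga4, 1 Itgae, 2 Itga6 and 1 Itgb1 probe sets by stage. Points are arrays, bars the mean and SD (n = 2), with IkL/L in red on the left and WT in blue on the right of each pair, and each panel has its own axis that does not start at 0. Both Itga4 sets lie lower and both Itga6 sets higher on IkL/L arrays at every stage, and the Itgae arrays of the genotypes overlap in DP cells.

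The opposite differences of Itga4 and Itga6 were also read within each array, where a scale factor of the array cancels. The log2 signal of 1422445_at minus that of 1436037_at was -0.45 and -0.39 on the IkL/L DN3 arrays, against -2.11 and -1.98 on the WT DN3 arrays. It was 0.15 and 0.17 on the IkL/L DN4 arrays, against -1.57 and -1.40 on the WT DN4 arrays. In DP cells it was 0.73 and 0.58 on the IkL/L arrays, against -0.32 and 0.01 on the WT arrays. The IkL/L arrays were above the WT arrays at each stage. Probe sets differ in how strongly they bind, so this value orders arrays and not the amounts of both RNAs, and it was chosen after the signals had been seen, so it carries no test.

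Itgae, the αE chain of the E-cadherin receptor αEβ7, was below the array median on every IkL/L array and above it in WT DN3 and DN4 cells. Its brighter set (1449216_at) read 5.05 and 4.87 on the IkL/L arrays, against 5.97 and 5.76 on the WT arrays, in DN3 cells. In DN4 cells it read 5.11 and 4.95 on the IkL/L arrays, against 5.63 and 6.09 on the WT arrays, and in DP cells 5.03 and 5.13 on the IkL/L arrays, against 5.22 and 5.11 on the WT arrays. The genotypes did not overlap in DN3 or DN4 cells and overlapped in DP cells. The signals differed by -0.91 ± 0.17 in DN3 cells (adjusted p = 0.0287), -0.83 ± 0.17 in DN4 cells (0.034) and -0.08 ± 0.17 in DP cells (0.91). Those of the second set, 1447541_s_at, differed by -2.49 ± 0.34 in DN3 cells (0.00558), by -1.35 ± 0.34 in DN4 cells (0.065, not called) and by 0.09 ± 0.34 in DP cells (0.959), where the arrays of the genotypes overlapped.

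Both Itgae sets passed the filter only through WT arrays, which had to be the higher ones, and the IkL/L levels may be background. The differences in DN3 and DN4 cells are therefore lower limits, and the filter chose for their direction, so the tests are no independent support for it. In DP cells, where the WT arrays too were near or below the array median, no difference can be read. The averaged differences were -0.61 ± 0.10 for 1449216_at (adjusted p = 0.00499) and -1.25 ± 0.19 for 1447541_s_at (0.00436). The call of the first of these was lost without the 3 IkL/L replicate 2 arrays, at -0.57. So were the DN3 and DN4 calls of that set, at -0.82 and -0.75. For 1449216_at the DN3 call was lost with the replicate number as a block within each genotype (0.058) and without either WT DN3 array, IkL/L DN3 replicate 2 or any 1 of the IkL/L DN4 and DP arrays (0.0531 to 0.284), and the DN4 call without WT DN4 replicate 2 or any 1 of the WT DN3, IkL/L DN4 and IkL/L DP arrays (0.0565 to 0.236). The DN3 call of 1447541_s_at was lost without WT DN3 replicate 1 (0.0714).

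Marker genes of other lymphocytes that the sorted cells could hold were measured beside Itgae. The mean over 7 γδ T and NK cell genes was 5.59 to 5.88 on IkL/L and 6.06 to 6.17 on WT DN3 arrays, 5.30 to 5.40 on IkL/L and 5.99 to 6.23 on WT DN4 arrays, and 4.74 to 5.12 on IkL/L and 4.81 to 4.96 on WT DP arrays. Of its 4 tested genes, Nkg7 and Blk were lower in IkL/L DN3 cells, these and Sox13 were lower in DN4 cells, and 0 were called in DP cells, with medians of -0.88, -1.26 and 0.07. Klrd1 and Ncr1 were below the array median on all 12 arrays. The mean over 7 mature T cell genes was 6.21 to 6.23 on IkL/L and 6.82 to 6.90 on WT DN3 arrays, and 5.70 to 5.71 on IkL/L and 6.67 to 7.14 on WT DN4 arrays, and 5.41 to 6.39 on IkL/L and 6.02 to 6.05 on WT DP arrays, with 0 of 6 tested genes called in DN3 cells, 2 lower in DN4 cells (Cd69 and Runx3) and 1 lower in DP cells (Cd44), and medians of -0.60, -0.98 and -0.11. Of 3 tested B cell genes 0 were called at any stage in limma, with medians of -0.05, -0.21 and 0.08. All tested sets had medians of -0.01, 0.04 and 0.00, with 1.83%, 3.17% and 2.8% called. The part of such cells in the Itgae difference was not tested.

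Itgb7, which partners αE and α4, was not called between the genotypes. It averaged 6.27 ± 0.62 in IkL/L and 6.69 ± 0.28 in WT DN3 cells, 6.46 ± 0.14 in IkL/L and 7.51 ± 0.33 in WT DN4 cells, and 7.46 ± 0.55 in IkL/L and 7.71 ± 0.03 in WT DP cells. The largest of its differences was that in DN4 cells, at -1.05 ± 0.33 (adjusted p = 0.106), and both IkL/L DN4 arrays lay below both WT DN4 arrays. It passed the threshold without IkL/L DN3 replicate 1 or replicate 2 (0.0378 each). The averaged difference was -0.57 ± 0.19 (0.0971), which passed without IkL/L DN3 replicate 1 (0.0196).

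The LFA-1 chains were not called between the genotypes either. Itgal averaged 9.54 ± 0.23 in IkL/L and 9.92 ± 0.03 in WT DN3 cells, 9.38 ± 0.07 in IkL/L and 9.45 ± 0.13 in WT DN4 cells, and 10.94 ± 0.07 in IkL/L and 11.25 ± 0.33 in WT DP cells. Its averaged difference was -0.25 ± 0.10 (adjusted p = 0.154), and that of the dimmer set 1425367_at -0.42 ± 0.14 (0.0882). Itgb2, its β2 partner, had an averaged difference of -0.41 ± 0.13 (0.0871), with both IkL/L arrays below both WT arrays at each stage. The Itgb2 difference passed the threshold without WT DP replicate 1 (0.0429) or IkL/L DN3 replicate 1 (0.0186). Neutrophils and other myeloid cells also carry β2: the mean over 10 myeloid genes was 5.15 to 5.87 on IkL/L and 4.9 to 5.0 on WT DN3 arrays. It was 4.68 to 5.15 on IkL/L and 4.9 to 4.92 on WT DN4 arrays, and 4.72 to 5.06 on IkL/L and 4.86 to 4.88 on WT DP arrays, overlapping at both stages. Of these genes 4 were below the array median on all 12 arrays and 0 of 6 tested were called at any stage in limma. Of all tested sets 1.83% were called in DN3, 3.17% in DN4 and 2.8% in DP cells. The part of these genes in the Itgb2 signal was not tested.

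The tested sets of Itgav and Itga5 showed small differences with no call. Itgav (1452784_at) averaged 7.91 ± 0.00 in IkL/L and 7.76 ± 0.01 in WT DN3 cells, with an averaged difference of 0.15 ± 0.08 (adjusted p = 0.277), and its second tested set, near the array median, gave -0.04 ± 0.08 (0.795). Itga5 (1423267_s_at) lay between 4.89 and 5.37 on all arrays, above the array median on 7 of them, and differed by -0.01 ± 0.07 (0.94). Of its untested sets, 1458996_at reached the array median on 1 array. In DN3 cells it read 4.68 and 4.92 on the IkL/L arrays, against 4.38 and 4.27 on the WT arrays. In DN4 cells it read 4.57 and 5.19 on the IkL/L arrays, against 4.32 and 4.52 on the WT arrays. In DP cells its arrays overlapped between the genotypes. The other untested Itga5 sets lay between 3.58 and 4.47. At a signal this close to background a difference of the α5 chain may be missed.

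Itgb3, the β3 chain of αvβ3, had opposite signs at different stages, none called. Its tested set read 5.66 and 5.30 on the IkL/L arrays, against 6.11 and 6.03 on the WT arrays, in DN3 cells. In DN4 cells it read 6.11 and 6.15 on the IkL/L arrays, against 6.61 and 7.02 on the WT arrays, and in DP cells 5.49 and 6.64 on the IkL/L arrays, against 5.29 and 4.91 on the WT arrays. The IkL/L arrays were below the WT arrays in DN3 and DN4 cells and above them in DP cells, where the IkL/L arrays differed from each other by 1.15. The differences were -0.59 ± 0.32, -0.68 ± 0.32 and 0.97 ± 0.32 (adjusted p = 0.533, 0.236 and 0.189). IkL/L DP replicate 2, the higher array for Itgb3, also read higher than replicate 1 for the mature T cell genes Klf2 (6.89, against 5.81) and Il7r (7.72, against 5.62), with a mean over 7 such genes of 6.39, against 5.41. Without IkL/L DP replicate 1 the DP difference was 1.54 and passed the threshold (0.0246). Platelets also carry β3: of 7 platelet genes, Pf4, Ppbp, Vwf and Gp6 were below the array median on all 12 arrays and Gp1bb, Gp9 and Itga2b above it on all 12, and the mean over the 7 was 4.79 to 5.03. The part of other cells in the Itgb3 signal was not tested.

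From DN3 to DN4, Itga4 fell and Itgb2 rose in both genotypes. In IkL/L cells 3 of 18 sets were called (1 higher, 2 lower, against 1.98% of all sets), and in WT cells also 3 (1 higher, 2 lower, against 4.81%). Itga4 (1436037_at) fell to 58% of its DN3 signal in IkL/L cells (difference -0.79 ± 0.13, adjusted p = 0.0173) and to 54.2% in WT cells (-0.88 ± 0.13, 0.0059). The set 1421194_at fell by 0.65 in IkL/L (0.0338) and by 0.65 in WT cells (0.0193), the IkL/L call being lost with either kind of replicate block (0.0584 and 0.0593), with array weights, with centred arrays and with a trended prior (0.052 to 0.129), and the WT call after a second quantile normalization (0.0724), while 1456498_at differed by -0.33 ± 0.21 in IkL/L (0.564) and by -0.21 ± 0.21 in WT cells (0.659), neither called. Averaged over all Itga4 probe sets, dim ones included, the step was -0.33 in IkL/L (0.121) and -0.37 in WT cells (0.0631), also not called.

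Itgb2 averaged 9.22 ± 0.11 in IkL/L DN4, against 8.03 ± 0.42 in IkL/L DN3 cells, and 9.55 ± 0.17 in WT DN4, against 8.44 ± 0.04 in WT DN3 cells. It rose to 229% of the DN3 signal in IkL/L (1.20 ± 0.23, adjusted p = 0.0287) and to 215% in WT cells (1.10 ± 0.23, 0.0254). These step calls rested on few arrays. In WT the call of Itgb2 was lost without any 1 of the 4 arrays compared (0.101 to 0.169), that of 1436037_at without WT DN3 replicate 1 or WT DN4 replicate 1 (0.0558 to 0.0614) and that of 1421194_at without any 1 of the 4 (0.0671 to 0.209). In IkL/L the call of Itgb2 was lost with 1 replicate block for both genotypes (0.0578) and without any 1 array other than IkL/L DN3 replicate 1 and the WT DP arrays (0.0532 to 0.193), that of 1436037_at without IkL/L DN3 replicate 1 or either IkL/L DN4 array (0.0534 to 0.148) and that of 1421194_at without any 1 of the 8 DN3 and DN4 arrays (0.064 to 0.25).

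From DN4 to DP, the LFA-1 chains, αv and α6 rose in both genotypes. Among the 18 sets 5 were called in IkL/L cells (5 higher, 0 lower, against 38.4% of all sets) and 8 in WT cells (5 higher, 3 lower, against 55.1%). Called higher were 16.8% of all sets in IkL/L and 27.5% in WT cells. The 3' minus 5' difference of the Gapdh control sets, a sign of RNA quality, was 3.02 to 3.83 on the DP arrays and 2.01 to 2.73 on the DN3 and DN4 arrays, and its part in this step was not tested. Itgal rose to 295% of its DN4 signal in IkL/L cells (1.56 ± 0.17, adjusted p = 0.000139) and to 350% in WT cells (1.81 ± 0.17, 3.53e-05). Itgb2 rose to 321% in IkL/L (1.68 ± 0.23, 0.000393) and to 361% in WT cells (1.85 ± 0.23, 0.000141). The other tested Itgal set, 1425367_at, differed by 0.63 ± 0.23 in IkL/L (0.0598) and by 0.53 ± 0.23 in WT cells (0.08), neither called, and averaged over all Itgal sets the WT step was 1.17 (0.000139).

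Itgav (1452784_at) averaged 9.51 ± 0.27 in IkL/L DP, against 7.95 ± 0.11 in IkL/L DN4 cells, and 9.39 ± 0.07 in WT DP, against 7.78 ± 0.04 in WT DN4 cells. It rose by 1.56 in IkL/L (adjusted p = 4.64e-05) and by 1.61 in WT cells (2.11e-05), whereas its second tested set, near the array median, differed by -0.11 in IkL/L and by -0.35 in WT cells, neither called. Averaged over all Itgav sets, dim ones included, the step was 0.37 in IkL/L (0.011) and 0.37 in WT cells (0.00874). Itga6 (1422445_at) rose by 0.66 in IkL/L (0.0142) and by 1.27 in WT cells (0.000269). Its call in IkL/L was lost without IkL/L DN4 replicate 2 or IkL/L DP replicate 1, at differences of 0.61 and 0.57. It was also lost, at 0.69, without the 3 IkL/L replicate 2 arrays. The second Itga6 set rose by 1.06 in WT (0.000677) and differed by 0.40 ± 0.17 in IkL/L cells (0.0961, not called).

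The remaining calls of the DN4 to DP step were made in 1 genotype each. Itgb7 rose in IkL/L cells by 1.00 ± 0.33 (adjusted p = 0.0362), with 0.20 ± 0.33 in WT cells (0.619). Without the 3 IkL/L replicate 2 arrays the IkL/L difference was 0.72 and was not called. The Itgb7 call was lost without either WT DP array, either IkL/L DN4 array or IkL/L DP replicate 2 (0.0513 to 0.243), being 0.62 without the last of these, and without a filter or after a second quantile normalization (0.0512 and 0.0508). In WT cells Itgb3 fell by 1.72 (0.00176) and Itgae by 0.70 (0.0065) and 1.21 (0.0128) on its 2 sets, while in IkL/L cells Itgb3 differed by -0.07 ± 0.32 (0.9) and Itgae by 0.05 ± 0.17 (0.842) and 0.22 ± 0.34 (0.663). The Itgae set 1447541_s_at reached the array median only on WT DN3 and DN4 arrays, and 1449216_at on these and WT DP replicate 1. The filter thus favoured their fall in WT cells, so these tests are no independent support for it. All IkL/L signals of Itgae were below the array median and may be background, so no Itgae step can be read in IkL/L cells. Averaged over both Itgb3 sets, the WT step was -0.99 (0.000331). The Itgae calls were lost without WT DN4 replicate 2 (0.0561 and 0.103), the second also without WT DP replicate 2 (0.0757).

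No integrin step was called different between the genotypes. For the DN3 to DN4 step 0 of 18 sets were called in limma, against 0.012% of all sets, and for the DN4 to DP step 0 of 18, against 0.228%. At an unadjusted p under 0.05 there were 1 and 5 of the 18. The share of all sets at that unadjusted level was not computed, so these counts cannot be weighed. The largest difference was that of Itgb3 in the DN4 to DP step, 1.65 ± 0.46, IkL/L minus WT (adjusted p = 0.204). Those of Itgae and Itga6 (brightest sets) were 0.75 ± 0.24 (0.246) and -0.61 ± 0.24 (0.313), with the IkL/L signals of Itgae below the array median at both stages. The stages at which a chain was called between the genotypes are therefore not shown to differ from the others.

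**Figure D3:**
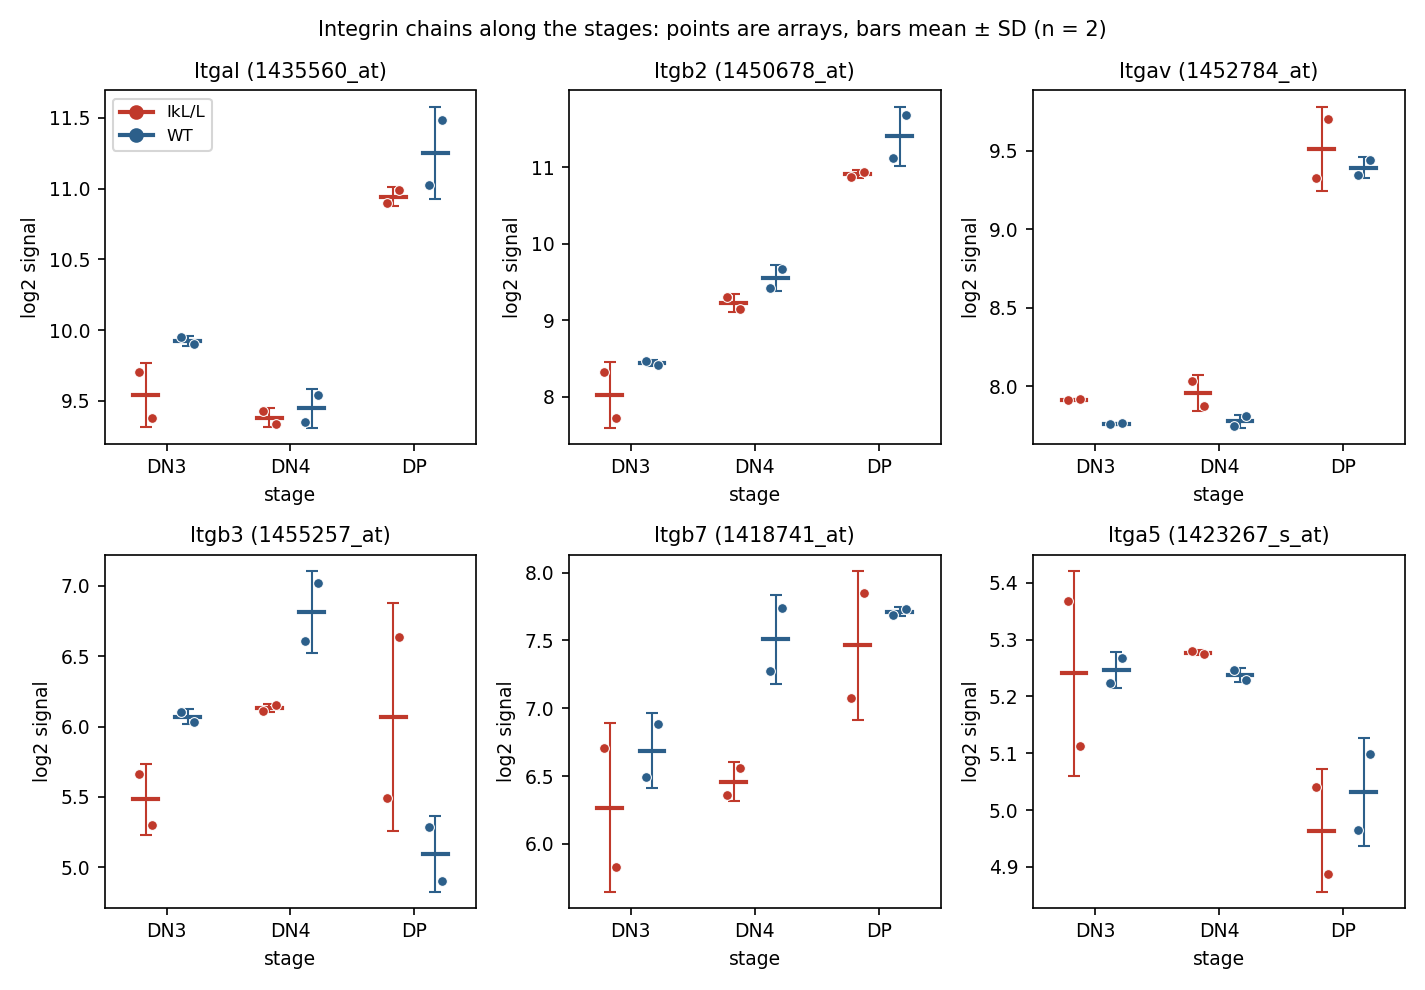
Log2 signal of Itgal, Itgb2, Itgav, Itgb3, Itgb7 and Itga5 (brightest probe set each) by stage. Points are arrays, bars the mean and SD (n = 2), with IkL/L in red on the left and WT in blue on the right of each pair, and each panel has its own axis that does not start at 0. Itgal, Itgb2 and Itgav are highest in DP cells of both genotypes, and the 2 IkL/L DP arrays lie far apart for Itgb3 and Itgb7.

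Ordered by mean, Itga4 was highest in WT DN3 cells (10.65 ± 0.04) and lowest in IkL/L DN4 cells (9.09 ± 0.08), and Itga6 was highest in IkL/L DP (9.91 ± 0.12) and lowest in WT DN4 cells (8.28 ± 0.15). For Itga4 the arrays of IkL/L DN3 overlapped those of WT DN4, its next group, and those of WT DN4 overlapped WT DP. For Itga6 WT DP overlapped IkL/L DN3, its next group, and no other neighbours in the order overlapped. Across the 12 arrays the brightest sets of Itgal and Itgb2 correlated at r = 0.841, Itgal and Itgav at 0.931 and Itgav and Itgb2 at 0.882, while Itga6 and Itgae correlated at -0.820 and Itga4 and Itgb1 at -0.542. These values describe 12 arrays that share stages and genotypes.

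The genes whose signals were most like each chain over the 12 arrays, by Pearson correlation among the brightest tested set of every named gene, were Emid1 (0.986), Hif3a (0.980) and Spns3 (0.972) for Itga4 and Ndst2 (0.969), Rell1 (0.966) and Iftap (0.963) for Itga6. They were Actn2 (0.961), Scml4 (0.945) and Zcchc18 (0.911) for Itgae and Npnt (0.936), Fech (0.926) and Plod2 (0.926) for Itgb1. For the chains highest in DP cells they were led by Ppp1r3b (0.996) for Itgal, Spsb3 (0.990) for Itgb2 and A430035B10Rik (0.990) for Itgav. For Itgb3 the nearest was Klf2 (0.939), a transcription factor of mature T cells, for Itgb7 Cotl1 (0.925) and for Itga5 Atp5b (0.965). Stage and genotype are shared by all these genes, and the values carry no test.

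Of 16 other integrin chains, 14 had a probe set and 6 were tested, each by its brightest set. In limma 0 of the 6 were called between the genotypes in any stage or on average. Of all tested sets 1.83% were called in DN3, 3.17% in DN4 and 2.8% in DP cells, and 8.7% on average. At such shares 0 of 6 says little about these chains. Their median difference was -0.12 in DN3, -0.14 in DN4 and -0.19 in DP cells, where all tested sets had -0.01, 0.04 and 0.00. Among them was Itgb4, the other β partner of α6, with -0.96 ± 0.24 in DN3 cells (adjusted p = 0.107). Itgb4 fell from DN3 to DN4 by 1.25 in IkL/L (0.0322) and by 1.90 in WT cells (0.00268). Itgb5, a β partner of αv, rose from DN4 to DP by 0.75 in IkL/L (0.0109) and by 0.87 in WT cells (0.00349).

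Among 32 listed integrin ligands, 30 had a probe set and 14 were tested. In DN3 cells 1 was higher and 1 lower in IkL/L, in DN4 cells also 1 and 1, in DP cells 0 and 0, and on average 1 and 3. Over all tested sets 1.83%, 3.17%, 2.8% and 8.7% were called in these comparisons. The ligand medians were -0.23, -0.14, -0.09 and -0.16, where all tested sets had -0.01, 0.04, 0.00 and 0.01. The lower gene was Cdh1, encoding E-cadherin, the ligand of αEβ7, which averaged 4.32 ± 0.12 in IkL/L and 7.93 ± 0.18 in WT DN3 cells, a difference of -3.61 ± 0.14 (adjusted p = 2.97e-06). Cdh1 passed the filter only through the WT DN3 arrays, so that difference is a lower limit and its direction was fixed by the filter, and it was not tested without either of them. The other 10 arrays were below the array median, so the call in DN4 cells compares signals that may both be background. The higher gene was Lamb2, a laminin β chain, at 6.29 ± 0.63 in IkL/L and 4.84 ± 0.10 in WT DN3 cells (1.46 ± 0.29, 0.0431) and 1.51 ± 0.29 in DN4 cells (0.0304). Lamb2 was below the array median on all WT arrays, so its differences are lower limits and the filter fixed their direction. The averaged calls of Lamb2 and of Icam1, a ligand of LFA-1 that was lower (-0.63 ± 0.11, 0.00631), were kept without any 1 array. The calls of Lamb2 in DN3 and DN4 cells were lost in 9 and 6 of 12 such fits, and the averaged call of Lamc1, another laminin chain (-0.50 ± 0.10, 0.0189), in 4 of 12.

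Of 52 listed genes for integrin activation, adaptors and tetraspanin partners, 49 had a probe set and 44 were tested. The genotype calls were 2 higher and 0 lower in DN3, 4 and 0 in DN4, 3 and 0 in DP cells, and 6 and 1 on average, of 44, against 1.83%, 3.17%, 2.8% and 8.7% of all tested sets. The medians were -0.09, 0.06, -0.05 and -0.04, where all tested sets had -0.01, 0.04, 0.00 and 0.01. Vcl, encoding vinculin, which links integrin adhesions to actin, was higher in IkL/L at all 3 stages. It averaged 8.58 ± 0.05 in IkL/L and 7.08 ± 0.17 in WT DN3 cells (1.49 ± 0.13, adjusted p = 0.000748), 8.38 ± 0.20 in IkL/L and 7.21 ± 0.00 in WT DN4 cells (1.17 ± 0.13, 0.00274), and 7.56 ± 0.05 in IkL/L and 5.58 ± 0.03 in WT DP cells (1.98 ± 0.13, 8.00e-05). The Vcl calls were kept without any 1 array and without the 3 IkL/L replicate 2 arrays.

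Tns3, encoding a tensin that binds β chain tails, was higher in IkL/L DP cells, at 11.38 ± 0.26 in IkL/L and 9.0 ± 0.12 in WT DP cells (2.38 ± 0.15, adjusted p = 5.35e-05). Cd9 and Cd81 encode tetraspanins, membrane proteins that associate with β1 integrins. Cd9 averaged 7.24 ± 0.09 in IkL/L and 4.78 ± 0.19 in WT DP cells (2.46 ± 0.25, 0.000891), a lower limit because both WT DP arrays were below the array median, and Cd81 9.48 ± 0.12 in IkL/L and 7.56 ± 0.43 in WT DN3 cells (1.92 ± 0.24, 0.00386). These 3 calls were kept without any 1 array, whereas the DN4 calls of Tns3 (0.80), Cd9 (1.20) and Cd81 (1.26) were lost in 6, 7 and 5 of 12 such fits. On average Actn1 (0.44, 0.0175), Rap1a (0.28, 0.0404) and Tns1 (-0.29, 0.0406) were also called, and lost the call in 4, 11 and 10 of 12 fits. Talin-1 (Tln1), kindlin-3 (Fermt3) and Rap1b, which switch integrins to the binding state, were not called between the genotypes.

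**Figure D4:**
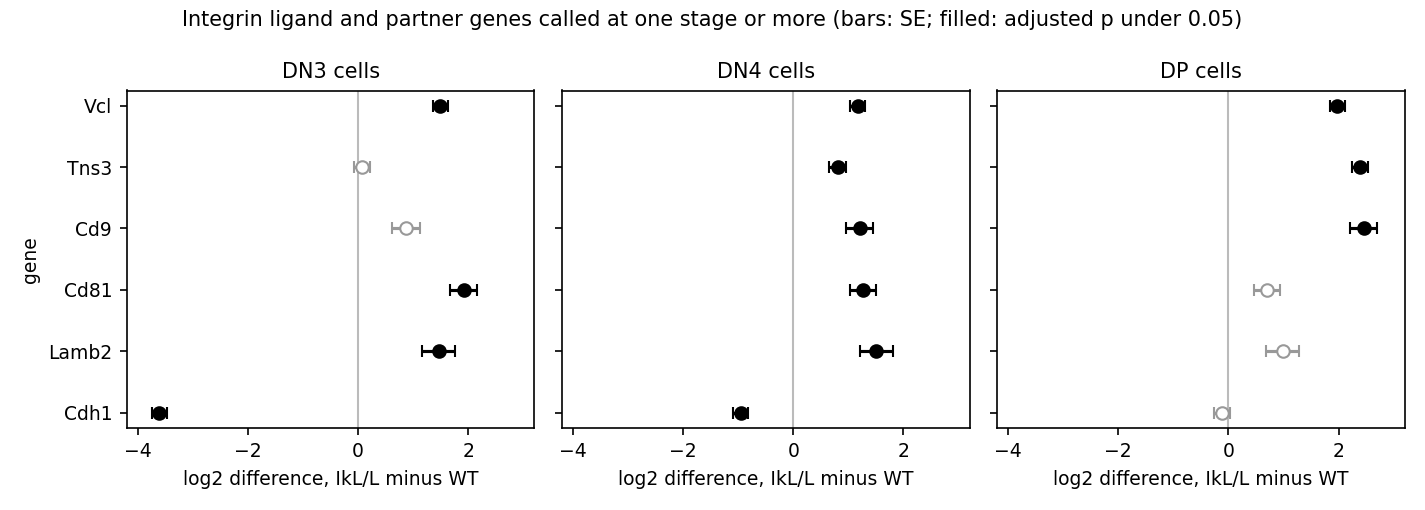
Log2 difference of signal, IkL/L minus WT, of the 6 ligand and partner genes called at 1 stage or more (rows) in DN3, DN4 and DP cells (panels). Points are limma estimates, bars standard errors, and filled points have an adjusted p under 0.05. Vcl lies above 1 in every panel, Tns3 and Cd9 reach their largest values in DP cells, and Cdh1 lies at -3.61 in DN3 cells. The values of Cdh1 and Lamb2, and of Cd9 in DP cells, are taken against signals below the array median.

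Genes of the adaptor list also changed in the DN4 to DP step. Of the 44 tested genes, 18 were called higher and 2 lower in IkL/L cells, with a median of 0.24 where all tested sets had -0.01. In WT cells 21 were higher and 3 lower, with a median of 0.36 where all tested sets had -0.07. The share called higher was 40.9% of the list in IkL/L, against 16.8% of all tested sets, and 47.7% in WT, against 27.5%. The share called lower was 4.55% in IkL/L, against 21.6%, and 6.82% in WT, against 27.6%. The list holds 1 set per gene, its brightest, while all tested sets include dim sets and several sets of some genes. These shares are therefore of unlike units, and brightness was not matched. Rasgrp1, an activator of Ras proteins, rose by 1.70 in IkL/L (adjusted p = 0.000103) and by 1.88 in WT cells (3.28e-05). Sharpin, an inhibitor of integrin activation, rose by 0.93 in IkL/L (0.00101) and 1.22 in WT cells (0.000134), and Fermt3 by 0.56 in IkL/L (0.00661) and 0.72 in WT cells (0.00117). Vcl went the other way, falling by 0.82 in IkL/L (0.00122) and by 1.63 in WT cells (1.52e-05).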

How the data were processed

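The deposited log2 signals were made by the authors with RMA, per the submitters' processing notes (background correction, quantile normalization and a summary per probe set, version not given in the sources used here). Quantile normalization gives all arrays the same distribution, so a shift shared by most genes would not be seen. Biotin-labelled cRNA was made in a 2-cycle protocol in several labelling series that the labels do not tie to samples, so this batch was not tested. Of the 45099 probe sets, 34958 carry 1 gene symbol in the platform annotation, 932 several and 9209 none, and 62 array controls were left out. Sets that reached the array median on 2 arrays or more (24976) were fitted with limma 3.58.1 in R 4.3.3, tested on simulated data first, with 1 mean for each of the 6 groups over all 12 arrays (6 residual and 3.28 prior degrees of freedom) and 10 contrasts. P-values were adjusted (Benjamini-Hochberg) over all tested sets in each contrast, with a threshold of 0.05. Python 3.11.15, pandas 2.3.3 and matplotlib 3.10.9 were used for the rest.

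All members are named, by their brightest set first. Values on every array are given where the brightest set was called between the genotypes at a stage, and were added for another Itga4 set, Itgb1 and Itgb3 after they had been seen. Of the other lists, read by the brightest set of each gene, up to 4 called genes per list and contrast are named, and for each member up to 3 genes of most similar signal. The shares of all tested sets given beside these lists cover every tested set, dim ones included. Actn1, Rap1a and Tns1, averaged calls beyond these 4, values of uncalled genes of these lists (Itgb4, Itgb5, Tln1, Fermt3, Rap1b) and the genes given for the DN4 to DP step were picked after their values were seen. The members and lists were chosen with earlier results of these data known. Alternatives covered filters, variance priors, array weights, scaling, the replicate number as a block, an actin 3' to 5' covariate, the arrays in the fit and the choice of probe set per gene.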

Additional observations from a re-analysis of the deposited data

How the results depend on the processing

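In 26 alternative settings, 836 of 963 repeats of the 39 called single results kept their call, 127 lost it and 0 changed sign, and 17 of the 39 kept it in every setting. Of the 1905 repeats of the 75 uncalled results, 29 gained a call and 79 changed sign without one. The averaged genotype comparison (9 sets called) had 6 to 12 calls in all settings. The mean of all probe sets of a gene moved the DN4 to DP step of Itgav to 0.37 in IkL/L and 0.37 in WT cells. With each array left out in turn, the counts ran from 1 to 6 for the genotypes in DN3 cells (5 with all arrays), 1 to 9 in DN4 (5), 1 to 4 in DP (1) and 8 to 12 averaged. They ran from 0 to 3 for DN4 against DN3 in IkL/L and in WT cells (3 each), from 3 to 6 for DP against DN4 in IkL/L (5) and from 6 to 10 in WT cells (8). Counts that moved by more than 1.5 times were, in DN3 cells, 2 with the filter at the 75th percentile of the array, 3 with array weights and 0 in a fit of the contrast's arrays alone. In DN4 cells the count was 9 with array weights. In DP cells it was 0 at the 75th percentile, 2 after a second quantile normalization, 4 with the actin 3' to 5' difference as a covariate and 0 with the contrast's arrays alone. For DN4 against DN3 it was 0 with the contrast's arrays alone in IkL/L, and in WT 5 with those alone and 5 with array weights, and for DP against DN4 in WT it was 5 at the 75th percentile. Without the 3 IkL/L replicate 2 arrays it was 2 in DN3, 3 in DN4, 0 for DN4 against DN3 in IkL/L and 3 for DP against DN4 in IkL/L. The step differences between genotypes had 0 calls throughout. The share of all sets called in each setting is not given here, so the counts cannot be set against it. The causes were not tested. No label says that a replicate number marks a shared source. The deviations of same-numbered arrays correlated between 0.36 and 0.47 in the 3 pairs of WT groups, and at 0.68 between IkL/L DN3 and DN4, whose correlations with IkL/L DP were -0.23 and -0.21, although the 3 IkL/L replicate 2 arrays share low Y-linked signals. Across genotypes they were -0.51 to -0.34 for IkL/L DN3 and DN4 and 0.20 to 0.25 for IkL/L DP. With 1 replicate block for both genotypes, 3 sets were called in DN3, 4 in DN4, 1 in DP and 9 averaged, and 1 for DN4 against DN3 in IkL/L. With the IkL/L numbers crossed, a block chosen after seeing the data, the genotype counts were 6, 7, 1 and 11. With a replicate block within each genotype, also chosen after seeing the data, they were 4, 5, 1 and 10. The step counts were then 2 for DN4 against DN3 in IkL/L and 3 in WT, and 6 for DP against DN4 in IkL/L and 9 in WT. Signals near the array median (Itga5, Itgae in IkL/L) limit what could be seen.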
